A study of Mus musculus with 4 samples.

Results

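The TGF-beta superfamily genes of the mammary fat pad (MFP) were compared between aged and young female mice. The genes were chosen by symbol: the TGF-beta, BMP, GDF and activin ligands, their receptors, the latent TGF-beta binding proteins, and the antagonists chordin, follistatin, noggin and gremlin with the follistatin-like genes. This rule found 54 of the 55487 genes in the count table: 28 ligand genes, 12 receptor genes, 9 antagonist and follistatin-like genes, and 5 genes for latency and processing proteins. Bulk RNA was sequenced from 4 MFP samples of c57bl/6j females, 2 aged (14 months) and 2 young (8 weeks). The labels name no transgene, tumor or treatment for any of them. Whole tissue was lysed, so every cell type of the pad contributed RNA, and a lower level in such bulk samples cannot tell fewer cells of a type from less RNA per cell. The labels call the samples biological replicates without saying whether each was 1 animal or a pool, so the p-values measure the spread between these samples.

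Ligands of this superfamily are secreted dimers that bring type I and type II receptor kinases together on the cell surface. TGF-beta and activin receptors phosphorylate SMAD2 and SMAD3, while BMP and some GDF receptors phosphorylate SMAD1, SMAD5 and SMAD9. The common partner SMAD4 carries both kinds of complex to target genes. TGF-beta is secreted in a latent form held in the matrix by latent TGF-beta binding proteins, while noggin, chordin and gremlin trap BMPs and follistatin traps activins. In fat, TGF-beta and activins are known to restrain the differentiation of adipocyte precursors, BMPs can promote it, and in the mammary gland TGF-beta restrains duct growth.

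Promoter sequence is shown for the members that had an unadjusted p under 0.05 in the age comparison and exactly 1 window in the promoter set (RefSeq, GRCm38.p6), together with Grem1, which was nearly confined to 1 library. Windows were found for 40 of the 54 members. Each sequence is the 250 bases before the RefSeq start, 5′ to 3′ on the strand of the gene. Capitals mark 4 motifs searched on both strands: the SMAD-binding element CAGAC, the GC-rich SMAD element GGCGCC, the E-box CAGCTG and the TATA box TATAAA. Read from the other strand, the first of these appears as GTCTG and the last as TTTATA, and the other two are their own reverse complements.
Acvr2a (chr2:48813859-48814108, plus strand): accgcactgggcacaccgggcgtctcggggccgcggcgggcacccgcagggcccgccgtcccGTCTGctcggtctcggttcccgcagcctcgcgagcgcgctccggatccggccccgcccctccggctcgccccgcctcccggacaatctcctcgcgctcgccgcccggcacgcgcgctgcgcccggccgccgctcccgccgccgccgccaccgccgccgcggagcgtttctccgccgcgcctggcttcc
Gdf7 (chr12:8301955-8302204, minus strand): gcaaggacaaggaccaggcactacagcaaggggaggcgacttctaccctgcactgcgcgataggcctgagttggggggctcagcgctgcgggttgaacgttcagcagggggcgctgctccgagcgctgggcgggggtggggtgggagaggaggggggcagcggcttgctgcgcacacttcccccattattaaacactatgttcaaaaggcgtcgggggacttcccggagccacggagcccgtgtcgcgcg
Gdf10 (chr14:33923337-33923586, plus strand): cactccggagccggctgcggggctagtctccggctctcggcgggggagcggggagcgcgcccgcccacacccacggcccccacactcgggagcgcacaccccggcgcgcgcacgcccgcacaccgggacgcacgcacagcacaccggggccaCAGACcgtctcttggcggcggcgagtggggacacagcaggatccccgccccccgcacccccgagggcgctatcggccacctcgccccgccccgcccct
Fstl3 (chr10:79777024-79777273, plus strand): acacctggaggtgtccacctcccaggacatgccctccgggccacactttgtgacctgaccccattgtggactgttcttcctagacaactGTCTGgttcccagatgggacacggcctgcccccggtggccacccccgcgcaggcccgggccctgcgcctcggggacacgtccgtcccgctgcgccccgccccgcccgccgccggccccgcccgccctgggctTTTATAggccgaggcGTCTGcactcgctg
Grem1 (chr2:113758649-113758898, minus strand): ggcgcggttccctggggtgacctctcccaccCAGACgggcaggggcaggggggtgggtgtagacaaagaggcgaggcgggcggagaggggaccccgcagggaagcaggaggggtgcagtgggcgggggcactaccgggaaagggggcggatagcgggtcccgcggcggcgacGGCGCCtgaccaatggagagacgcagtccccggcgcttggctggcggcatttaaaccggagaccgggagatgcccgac
CAGAC was found once upstream of Acvr2a, Gdf10 and Grem1, and at more than 1 place upstream of Fstl3, which also held the TATA letters. Grem1 was the only gene of these with GGCGCC, and Gdf7 held none of the 4 motifs. Over whole windows of 300 bases, CAGAC occurred in 42.2% of all 32851 promoters and in 28 of the 50 windows of the members (56.0%). GGCGCC occurred in 9.59% of all promoters, CAGCTG in 13.0% and TATAAA in 12.4%, against 8, 3 and 8 of the 50 member windows. These matches describe letters in a window and not bound sites.

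Library totals ran from 68803304 to 98402403 counts, so that 3 counts, the floor used here, correspond to 0.0337 to 0.0407 CPM (counts per 1e6 library counts, with library sizes scaled by TMM). Such floors cover counting error only. The library of young replicate 1 stood apart from the other 3: it lay at 122 on the first principal component, which held 60.0% of the variance, against −63.2 to −10.0 for the others. The summed level of 5 T cell markers was 414 CPM in that library, 3.93 in young replicate 2, and 5.78 and 37.2 in aged replicates 1 and 2. For 5 B and plasma cell markers the sums were 240 CPM in young replicate 1, 1.57 in young replicate 2, 11.7 in aged replicate 1 and 146 in aged replicate 2, where without Jchain the sum was 33.2. Skeletal muscle markers were higher in both aged samples for 11 of 12 genes, with sums of 18365 and 34078 CPM against 5037 and 7835. Adipocyte markers, which check the labelled tissue, were abundant throughout and higher in both aged samples for 8 of 8 genes (11698 and 7802 against 6814 and 6550 CPM). Some gaps were narrow: between aged replicate 2 and young replicate 2, Cidec had 541 against 540 CPM and Plin1 1019 against 1007. The log2 fold changes ran from 0.20 for Fabp4 (edgeR unadjusted p = 0.48) to 1.20 for Lep. Luminal epithelial markers were lowest in young replicate 1 (1405 CPM, against 2332 to 3549 in the other 3) and so were basal markers (317, against 613 to 905). The 6 epidermis and hair follicle markers summed to under 2 CPM in each library (1.33 to 1.94), with Flg at 0 in all 4. Each of the 8 cell division genes was highest in young replicate 1, with sums of 12.9 to 106 CPM. Macrophage markers summed to 193 to 531 CPM, of which Lyz2 alone gave 374 of the 531 CPM of young replicate 1, while 3 of the 6 genes were higher in both aged samples. Of 6 smooth muscle and pericyte markers, 2 were higher in both aged samples, Rgs5 and Des, a gene that skeletal muscle also expresses (507 and 752 against 122 and 132 CPM), and the other 4 overlapped. Of 8 fibroblast markers, 4 were higher and 3 lower in both aged samples, and the sums of endothelial (470 to 636 CPM) and Schwann cell markers (203 to 278) overlapped.

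**Figure D1:**
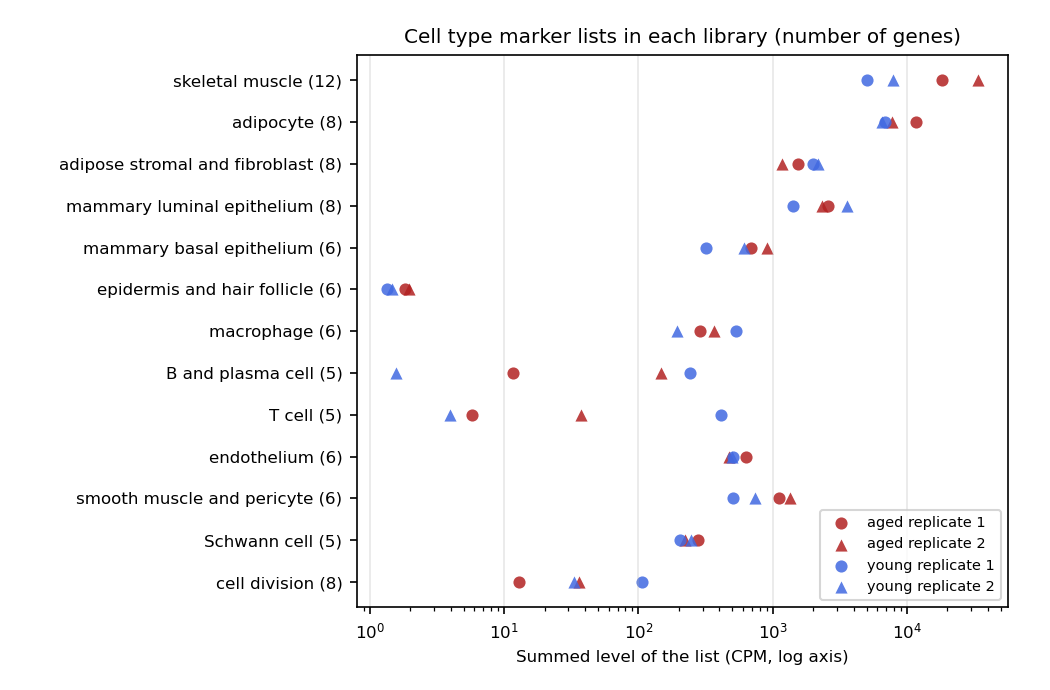
Summed CPM of each marker list (log axis, number of genes in brackets) in the 2 aged (red) and 2 young (blue) libraries. T cell markers reach 414 CPM in young replicate 1 against 3.93 to 37.2 in the other 3, and muscle markers are higher in both aged libraries.

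Of the 54 members, 45 had enough counts to be tested and 9 did not. The edgeR quasi-likelihood test with Benjamini-Hochberg adjustment called none of the 45 different between ages at an adjusted p under 0.05, nor any of the 22485 genes tested (percent called 0); the smallest adjusted p was 0.36. At an unadjusted p under 0.05, 10 members were higher in the aged MFP, against 7.24% of all genes tested, and 0 were lower, against 3.31%. These 10 were 6 ligand genes (Gdf3, Gdf6, Bmp3, Gdf7, Gdf10 and Bmp2), the receptors Acvr2a and Bmpr1b, and the inhibitors Nog and Fstl3. DESeq2, fitted to the same counts, called 4 members higher at an adjusted p under 0.05, namely Gdf3, Bmp3, Nog and Gdf10, and 0 lower. It called 3.03% of the 23039 genes with an adjusted p higher and 0.642% lower.

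In sign, 34 of the 45 tested members had a positive log2 fold change of aged over young, against 47.0% of all genes tested. Both aged samples lay above both young samples for 24 members (23.3% of all genes) and below them for 1, Bmp8b (22.8% of all genes), and 20 overlapped. The median log2 fold change was 0.34 over the members and −0.04 over all genes. By role it was 0.28 for the 22 tested ligand genes, 0.46 for the 5 latency and processing genes, 0.38 for the 12 receptor genes and 0.44 for the 6 tested antagonist and follistatin-like genes. Scaling by total counts alone shifted the median of all genes by −0.18. Relative to all genes the medians by role were then 0.31, 0.49, 0.42 and 0.47. Of the members, 30 were then positive, 13 lay above and 6 had an unadjusted p under 0.05. The shares of all genes given above hold for TMM scaling and do not apply to these counts. Under total counts, 2752 of the 22485 genes tested passed in either direction, against 2371 with TMM.

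Young replicate 1 was the lowest of the 4 libraries for 33 of the 45 tested members (73.3%), and for 33.8% of all genes tested. It was below young replicate 2 for 36 of the 45 members (80.0%), against 50.5% of all genes. The part of this library's lymphocyte and epithelial marker levels in the members' values was not tested. Without it, with young replicate 2 alone standing for the young group and assumed to vary like the aged samples, 9 members were higher at an unadjusted p under 0.05 (7.31% of all genes) and 2 lower (4.86%). Of the 10 members above, 8 passed again, and Acvr2a and Bmp2 did not. Gdf11 joined on the higher side, and Bmp1 and Bmp8b on the lower. A lone young sample separates more easily from the aged pair, so counts of separated members are not given for this fit. The median log2 fold change was then 0.26 over the members and 0.02 over all genes. The medians by role were 0.22, 0.07, 0.31 and 0.21. The median over the members also depended on the other libraries. It was 0.34 without aged replicate 1, 0.52 without aged replicate 2, and 0.89 without young replicate 2, which leaves young replicate 1 alone. Over all genes the medians were then −0.07, −0.05 and 0.01.

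**Figure D2:**
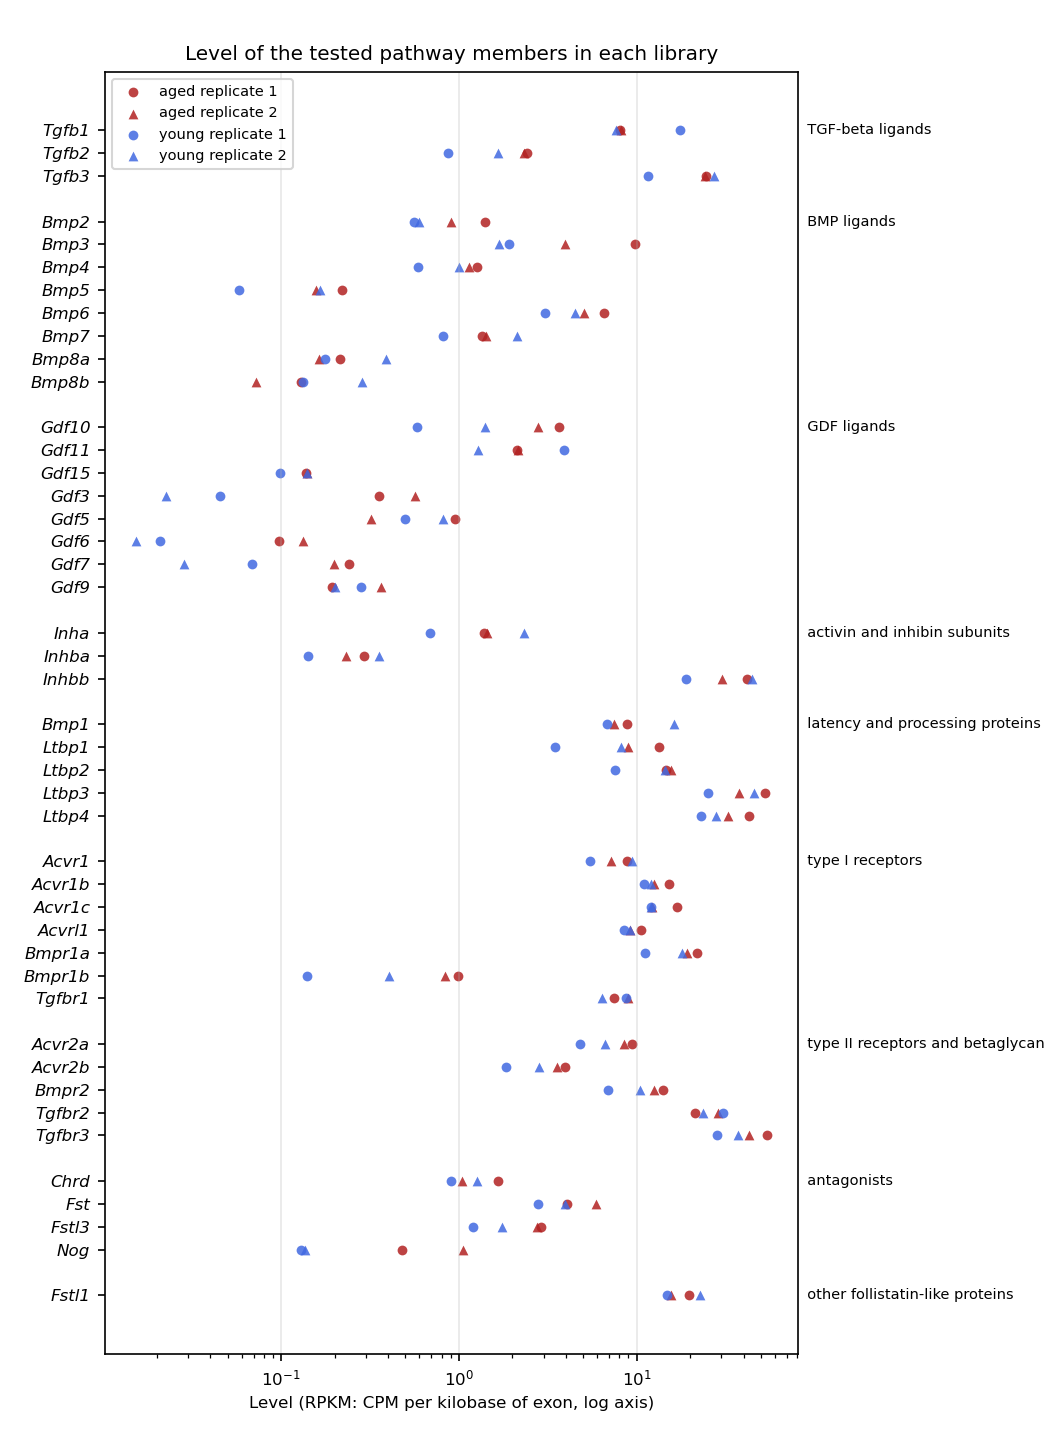
Level of 44 of the 45 tested members in each library, by role, in RPKM (CPM per kilobase of exon) on a log axis. Tgfbr3, Ltbp3, Inhbb and Ltbp4 sit at the top of the range, Gdf3, Gdf6, Gdf7 and Nog are low and separate by age, and the blue circle of young replicate 1 is the leftmost point for 32 of them.

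Levels were compared between genes as CPM per kilobase of exon (RPKM), with exon lengths from GENCODE M21. The highest mean level over the 4 libraries was that of Tgfbr3, or betaglycan, the co-receptor that presents TGF-beta ligands (40.6 RPKM). It was followed by Ltbp3 (40.3), Inhbb (33.9), Ltbp4 (31.7), Tgfbr2 (26.1), Tgfb3 (21.9), Fstl1 (18.3) and Bmpr1a (17.6). The ranges of these neighbors over the 4 libraries overlapped, so their order is not fixed by these data: Tgfbr3 spanned 28.3 to 53.9 RPKM, Ltbp3 25.3 to 52.6 and Inhbb 18.9 to 44.7. The members with the largest age differences were among the low ones, with mean levels of 0.0666 RPKM for Gdf6, 0.134 for Gdf7, 0.247 for Gdf3 and 0.449 for Nog.

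Among the GDF genes, 4 of the 8 tested were higher in the aged MFP at an unadjusted p under 0.05, against 7.24% of all genes tested. Gdf3, a ligand that signals through the receptor encoded by Acvr1c and is known from adipose tissue, lies at chr6:122605403-122610087 on GRCm38 (ENSMUSG00000030117). It had 70 and 122 counts in the aged samples, compared with 9 and 4 in the young, or 0.856 and 1.37 against 0.110 and 0.0542 CPM. The groups did not overlap, and the log2 fold change was 3.73 ± 0.58 (SE, n = 2 per group), a 13.3-fold difference. It ranged from 3.33 to 4.32 on leaving out each library. The adjusted p was 0.36 in edgeR and 1.1e-04 in DESeq2. Gdf6 (chr4:9844372-9862345), a ligand of joint and skeletal patterning, had 28 and 42 counts in the aged MFP and 6 and 4 in the young. Its groups were also separate, by 2.64 ± 0.46 on the log2 scale, and the adjusted p was 0.36 in edgeR and 0.080 in DESeq2.

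Gdf7 (chr12:8297918-8301954), a close relative of Gdf5 and Gdf6, had 28 and 25 counts in the aged libraries, against 8 and 3 in the young. The difference was 2.13 ± 0.56 on the log2 scale, or 1.66 to 2.89 on leaving out each library. The adjusted p was 0.42 in edgeR and 0.31 in DESeq2. These 3 genes rest on few reads, with at most 9 counts in any young library. Gdf10 (chr14:33923587-33937983), also called BMP3B, was better covered, with 1555 and 1300 counts in the aged samples, compared with 248 and 537 in the young (19.0 and 14.6 against 3.03 and 7.28 CPM). Its aged samples were both above its young samples by a log2 fold change of 1.71 ± 0.50 (adjusted p = 0.43 in edgeR and 0.035 in DESeq2). Young replicate 1 was the lowest, and without it the difference was 1.21 on the log2 scale, against 2.47 without young replicate 2.

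The other tested GDF genes did not separate by age. Gdf11, a close homolog of myostatin, had 8.62 and 8.74 CPM in the aged samples, 15.8 in young replicate 1 and 5.23 in young replicate 2. The young samples thus lay on either side of the aged pair, and the log2 fold change turned from −0.28 to 0.73 without young replicate 1. Gdf5 had 2.20 and 0.741 CPM in the aged MFP and 1.16 and 1.90 in the young, Gdf9, an oocyte factor, 0.391 and 0.741 against 0.573 and 0.407, and Gdf15, a stress-induced factor, 0.257 and 0.258 against 0.183 and 0.258. All 3 overlapped between ages, and 40.3% of the Gdf5 exons are covered by Gm15557 on the other strand, whose reads can be told apart only with stranded counting.

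Of the 8 tested BMP genes, Bmp3 and Bmp2 were higher in the aged MFP at an unadjusted p under 0.05, against 7.24% of all genes tested. Bmp3 (chr5:98854415-98884396), an atypical BMP that opposes signaling by other BMPs and activins, had 72.3 and 29.3 CPM in the aged libraries, against 14.1 and 12.4 in the young. Aged replicate 1 was the highest, the groups were separate, and the log2 fold change was 1.94 ± 0.49 (adjusted p = 0.41 in edgeR and 0.0070 in DESeq2). Bmp3 was also the most abundant BMP gene of the aged samples per length, at 9.78 and 3.96 RPKM, next to Bmp6 at 6.60 and 5.06, and these ranges overlap. Bmp2, an osteogenic and adipogenic BMP, had 4.99 and 3.22 CPM against 2.00 and 2.11 CPM (1.00 ± 0.34 on the log2 scale, edgeR adjusted p = 0.46). Leaving out aged replicate 1 lowered the Bmp3 difference to 1.13.

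Bmp4 and Bmp6 were also higher in both aged samples, without an unadjusted p under 0.05. Bmp4, which commits precursor cells to the fat lineage in culture, had 2.86 and 2.56 CPM in the aged samples, compared with 1.32 and 2.26 in the young. Bmp6, known for its control of hepcidin and iron, had 25.7 and 19.7 CPM against 11.9 and 17.6 CPM. Their log2 fold changes were 0.60 ± 0.39 and 0.62 ± 0.29. Bmp7, a BMP linked to thermogenic fat, had 5.39 and 5.74 CPM in the aged samples, inside the young values of 3.29 and 8.51. Bmp5 had 0.881 and 0.629 CPM in the aged MFP and 0.232 and 0.664 in the young, with overlap, and 46.7% of its exons are covered on the other strand by Gm26903.

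Bmp8a and Bmp8b were the tested BMP genes with the most negative log2 fold changes. Bmp8b, a BMP of brown fat, had 41 and 25 counts in the aged libraries, against 42 and 82 in the young, or 0.501 and 0.281 against 0.512 and 1.11 CPM. It was the 1 tested member with both aged samples below both young samples, though aged replicate 1 and young replicate 1 differed by 1 count, and its log2 fold change was −1.05 ± 0.59 (edgeR adjusted p = 0.55). Bmp8a had 42 and 35 counts in the aged samples, compared with 35 and 69 in the young, which overlapped (−0.58 ± 0.53). These near-identical neighbors can share reads, so the split of counts between them is uncertain.

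**Figure D3:**
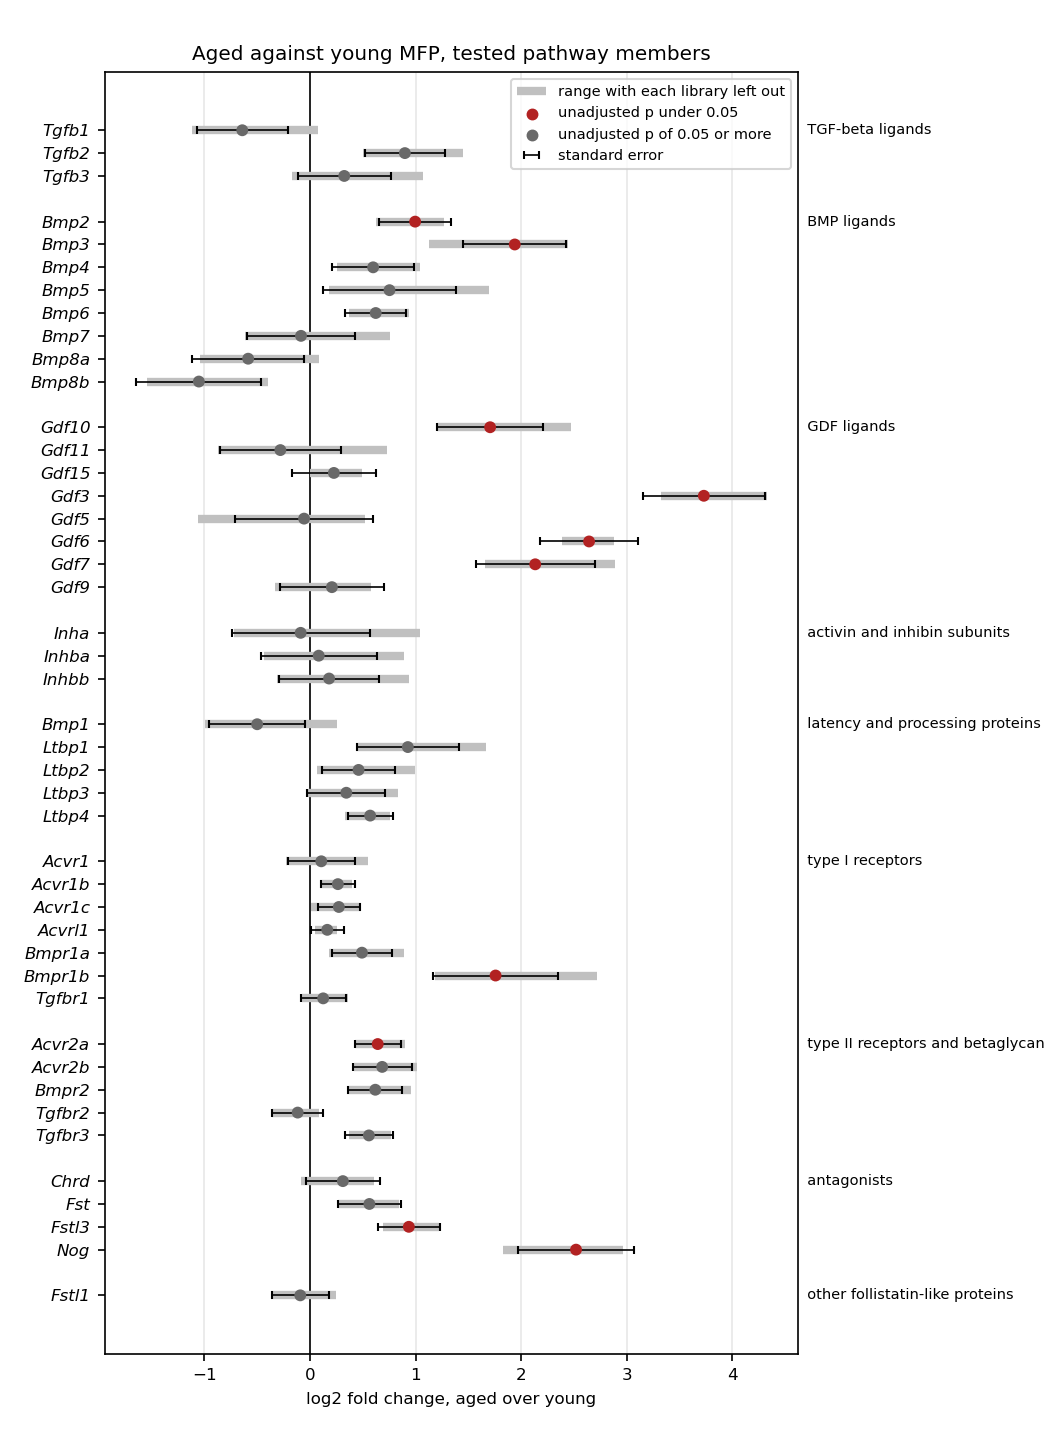
Log2 fold change of aged over young for 44 of the 45 tested members, by role. Points are edgeR estimates, red where the unadjusted p was under 0.05, with standard errors as thin bars and the range on leaving out each library in gray; 34 points lie above 0, and Gdf3 lies highest at 3.73.

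The TGF-beta ligand genes differed from one another in how they were distributed over the libraries. Tgfb1, the main isoform of immune cells and fibrosis, had 40.4 and 41.4 CPM in the aged samples, 38.7 in young replicate 2 and 88.9 in young replicate 1. Only that library stood out, and the log2 fold change of −0.64 ± 0.43 became 0.08 without it. In Tgfb2 the same library was the lowest, with 14.0 and 13.4 CPM in the aged MFP and 5.01 and 9.68 in the young (0.90 ± 0.38, or 0.50 without young replicate 1). Tgfb3, the most abundant of the 3 ligand genes per length, had 82.9 and 82.2 CPM in the aged samples, 39.2 in young replicate 1 and 92.6 in young replicate 2. Its log2 fold change of 0.33 ± 0.44 turned to −0.17 without young replicate 1. The edgeR adjusted p was 0.58 for Tgfb1, 0.50 for Tgfb2 and 0.77 for Tgfb3.

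The activin and inhibin subunit genes showed no separation by age. Inhbb, the activin B subunit made by adipocytes, was the third most abundant member, with 178 and 129 CPM in the aged libraries, against 80.3 and 190 in the young. Aged and young values overlapped, since young replicate 2 was the highest and young replicate 1 the lowest (0.18 ± 0.47, edgeR adjusted p = 0.88). Inhba, the activin A subunit, had 1.87 and 1.48 CPM in the aged samples, compared with 0.903 and 2.26 in the young. Inha, the inhibin alpha subunit, had 2.05 and 2.12 against 1.012 and 3.43 CPM. In all 3 genes the young libraries lay on either side of both aged libraries. The log2 fold changes were 0.08 ± 0.55 for Inhba and −0.09 ± 0.65 for Inha, and that of Inhba turns negative with total count scaling (−0.09).

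Ltbp1 to Ltbp4 encode the matrix proteins that hold TGF-beta in its latent form, except that the product of Ltbp2 does not bind it. None of the 5 latency and processing genes had an unadjusted p under 0.05. Ltbp1 had 142 and 95.9 CPM in the aged MFP and 37.4 and 87.9 in the young, and Ltbp4 had 279 and 211 against 149 and 180 CPM. Both genes were higher in both aged samples, by 0.93 ± 0.48 and 0.57 ± 0.21 on the log2 scale (edgeR adjusted p = 0.53 and 0.48). Ltbp2 had 120 and 128 CPM in the aged libraries, against 62.3 and 118 in the young, which did not overlap but came within 2 CPM between aged replicate 1 and young replicate 2 (0.46 ± 0.34). Ltbp3 had 477 and 341 against 229 and 415 CPM and overlapped (0.34 ± 0.37). Without young replicate 1 the values were 0.44 for Ltbp1, 0.44 for Ltbp4, 0.07 for Ltbp2 and −0.02 for Ltbp3.

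Bmp1 is a metalloprotease that trims procollagens and chordin and is not a BMP ligand despite its name. It had 78.4 and 65.9 CPM in the aged samples, 60.3 in young replicate 1 and 144 in young replicate 2. The 2 young samples were thus the lowest and the highest of the 4, and the log2 fold change was −0.50 ± 0.45 (edgeR adjusted p = 0.66). It was −0.99 without young replicate 1 and 0.26 without young replicate 2.

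All 7 type I receptor genes had a positive log2 fold change, from 0.11 to 1.76, against 47.0% of all genes tested. Of them, 5 were higher in both aged samples, against 23.3% of all genes. Under total count scaling, Acvr1 (−0.07), Acvrl1 (−0.01) and Tgfbr1 (−0.06) turned negative. Bmpr1b (chr3:141837136-142169425), a BMP and GDF receptor with restricted expression, had 5.92 and 4.997 CPM in the aged samples, compared with 0.829 and 2.40 in the young. The aged pair was close together and above both young samples, and the log2 difference was 1.76 ± 0.59 (adjusted p = 0.46 in edgeR and 0.087 in DESeq2), or 1.19 without young replicate 1 and 2.72 without young replicate 2. Its paralog Bmpr1a, the broadly expressed BMP receptor, had 139 and 122 CPM in the aged MFP and 70.5 and 115 in the young (0.49 ± 0.28). Per length, Bmpr1a was far more abundant, at a mean of 17.6 against 0.593 RPKM.

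The remaining type I receptors differed less. Acvr1c, the nodal and activin receptor enriched in adipocytes, had 157 CPM in aged replicate 1, 114 in aged replicate 2 and 112 in both young samples (0.27 ± 0.20). Acvr1b, the main activin type I receptor, had 67.2 and 55.3 against 48.9 and 53.0 CPM (0.27 ± 0.16), and Acvrl1, an endothelial receptor, 45.04 and 39.3 against 36.0 and 39.2 CPM (0.16 ± 0.16). In all 3, aged replicate 1 was the highest and aged replicate 2 was within 3 CPM of the nearest young sample. Acvr1 had 42.7 and 34.7 against 26.4 and 45.4 CPM, and Tgfbr1, the TGF-beta type I receptor, 49.0 and 58.6 against 56.8 and 41.9 CPM. These last genes overlapped between ages.

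Among the type II receptors, Acvr2a, Acvr2b and Bmpr2 were all higher in both aged samples, as were 23.3% of all genes tested. Acvr2a (chr2:48814109-48903269), an activin receptor shared with several BMPs, had 53.7 and 48.3 CPM in the aged libraries, against 27.4 and 37.9 in the young. The groups were separate, with a log2 fold change of 0.64 ± 0.22 and an edgeR adjusted p of 0.46. Acvr2b, its paralog and the main myostatin receptor, had 15.5 and 14.0 against 7.27 and 11.04 CPM (0.68 ± 0.28). Bmpr2, the BMP type II receptor, had 255 and 225 against 124 and 188 CPM (0.62 ± 0.25). These 3 differences were 0.43, 0.41 and 0.35 without young replicate 1.

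Tgfbr2 and Tgfbr3, which bind TGF-beta itself, had log2 fold changes of opposite sign. Tgfbr3 had 353 and 281 CPM in the aged samples, compared with 185 and 245 in the young, which did not overlap (0.56 ± 0.23, edgeR adjusted p = 0.50). Tgfbr2, the receptor that binds TGF-beta first, had 174 and 236 CPM in the aged MFP and 251 and 193 in the young, which overlapped. Its log2 fold change was −0.12 ± 0.24 with an edgeR adjusted p of 0.85, and it was the 1 receptor gene with a negative value. Young replicate 1 was the lowest library for Tgfbr3 and the highest for Tgfbr2 and, by a wider margin, for Tgfb1. The difference between the changes of these genes was not tested.

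Noggin and follistatin-like 3 were the antagonist genes with an unadjusted p under 0.05. Nog (chr11:89300638-89302332), which binds BMPs and keeps them from their receptors, had 66 and 159 counts in the aged libraries, against 18 and 17 in the young, or 0.807 and 1.79 against 0.220 and 0.230 CPM. The young samples agreed closely and both aged samples were higher, by a log2 fold change of 2.52 ± 0.55 (adjusted p = 0.40 in edgeR and 0.012 in DESeq2), or 1.83 without aged replicate 2. Fstl3 (chr10:79777272-79782630), which binds activins and myostatin, had 7.09 and 6.70 CPM in the aged samples, compared with 2.95 and 4.25 in the young. The groups were separate, by 0.94 ± 0.29 on the log2 scale (adjusted p = 0.45 in edgeR and 0.11 in DESeq2). Of the Fstl3 exons, 47.3% are covered by Prss57 on the other strand, and the strand setting of the counting is not given in the sources used here.

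Fst, the activin trap follistatin, had 18.7 and 27.0 CPM in the aged MFP and 12.8 and 18.2 in the young. The groups were separate but close, and the log2 fold change was 0.56 ± 0.30 (edgeR adjusted p = 0.54). Chrd, which traps BMPs until cut by BMP1-type proteases, had 10.4 and 6.50 against 5.66 and 7.97 CPM (0.31 ± 0.35), and Fstl1, a secreted glycoprotein and the most abundant gene of this group, 97.04 and 77.2 against 73.3 and 112 CPM (−0.09 ± 0.27). Both of these overlapped between ages.

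Grem1, a BMP antagonist made by stromal cells, was nearly confined to the library of young replicate 1. It had 1040 counts there (12.7 CPM), 0 in young replicate 2, and 0 and 1 in the aged samples. At these depths a count of 0 allows up to 0.0407 CPM in young replicate 2 and 0.0367 in aged replicate 1. Grem1 did not pass the filter on low counts, which needs reads in at least 2 libraries, and no age difference can be read from a gene present in 1 of the 2 young samples. The same library held the T cell and B cell marker levels given above, and their part in this value was not tested.

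The other members that were not tested were near or at the floor. Bmp10, Gdf1, Gdf2, Inhbc, Inhbe and Fstl5 had 3 counts or fewer in every library. The Gdf1 exons lie wholly inside those of Cers1 on the same strand, so its 0 counts in all 4 libraries cannot be read as absence. Bmp15, an oocyte factor, had 9 and 3 counts in the aged libraries, against 2 and 1 in the young, and Fstl4 had 1 and 0 against 8 and 2. Both are too low for a comparison.

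Genes of the pathway that the symbol rule does not name were taken from 6 lists, which hold 49 genes that are not members; of these, 44 were tested. At an unadjusted p under 0.05, 8 were higher and 4 lower in the aged MFP, against the 7.24% and 3.31% of all genes given above. The edgeR test called 0 of them at an adjusted p under 0.05, and DESeq2 called 4 higher and 3 lower.

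**Figure D4:**
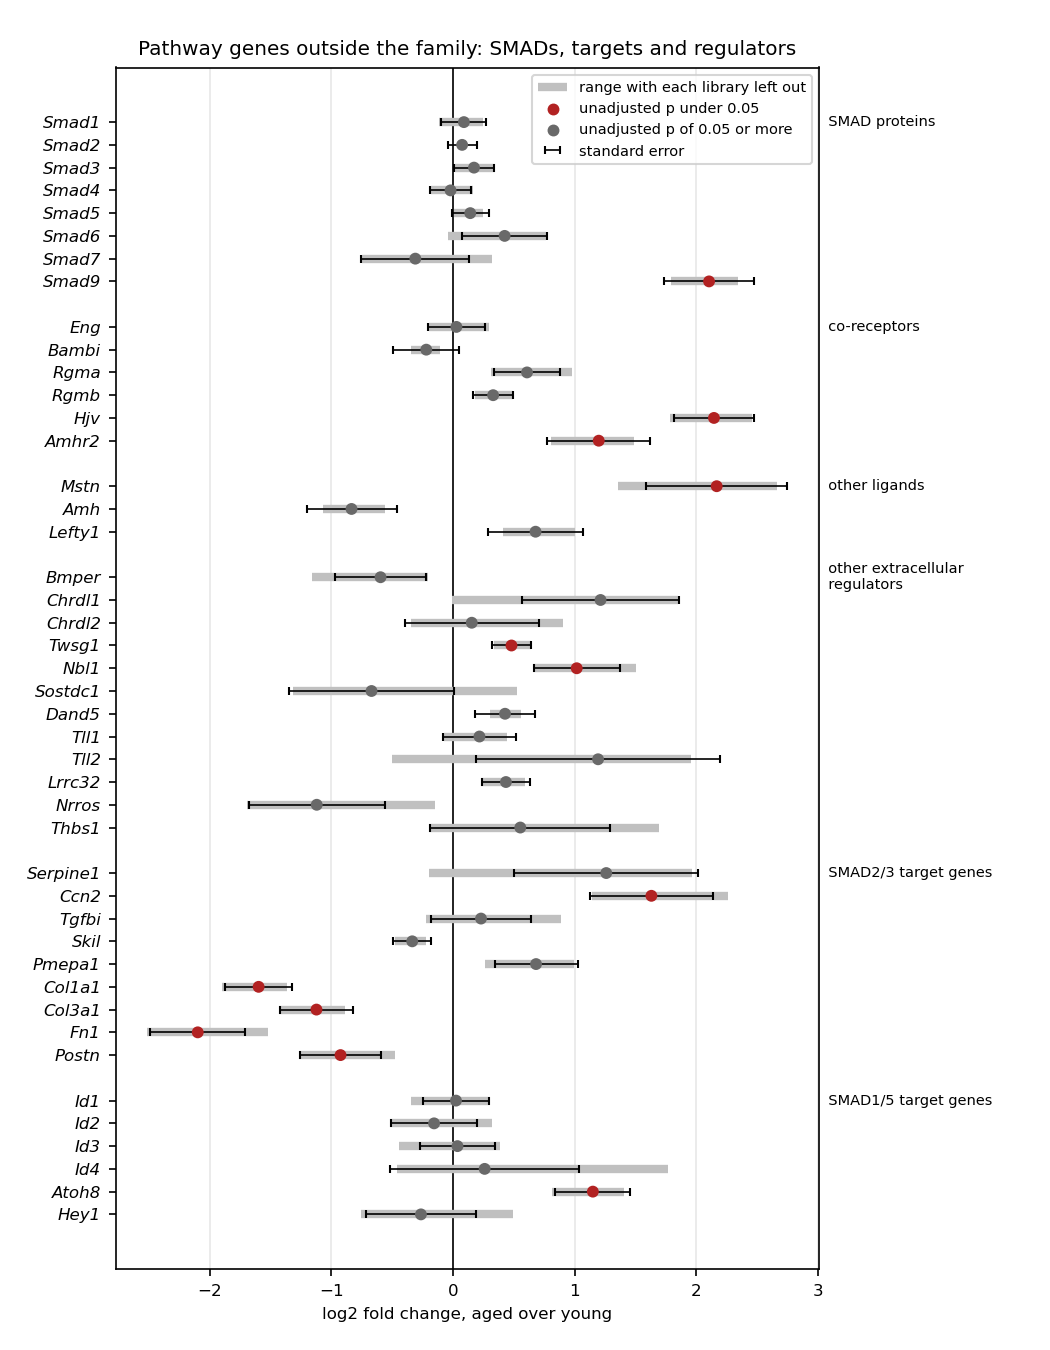
Log2 fold change of aged over young for the 44 tested pathway genes outside the family, by list, with edgeR standard errors (thin bars) and the range on leaving out each library (gray). Smad9, Hjv and Mstn lie above 2, Fn1 lies lowest at −2.10, and the SMAD genes other than Smad9 lie between −0.31 and 0.42.

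At an unadjusted p under 0.05, 1 of 8 SMAD genes was higher in the aged MFP and 0 lower (all genes: 7.24% and 3.31%). This was Smad9, which encodes a BMP-responsive SMAD, with 4.45 and 3.07 CPM in the aged samples, compared with 0.756 and 0.989 in the young. Its log2 fold change was 2.11 ± 0.37 (adjusted p = 0.36 in edgeR and 9.3e-05 in DESeq2), and it was 1.79 or more with any library left out. Smad1 and Smad5, the other BMP-responsive SMADs, had log2 fold changes of 0.09 ± 0.18 and 0.14 ± 0.15, and Smad2, Smad3 and Smad4 had 0.07 ± 0.12, 0.17 ± 0.16 and −0.02 ± 0.17. Smad6, an inhibitory SMAD, had 28.7 and 16.5 CPM against 14.4 and 19.2 CPM and overlapped (0.42 ± 0.35). Smad7, the other inhibitory SMAD, had 53.3 and 34.8 CPM in the aged samples, 74.0 in young replicate 1 and 35.2 in young replicate 2 (−0.31 ± 0.44).

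Among co-receptors, Hjv, a BMP co-receptor of muscle and liver, had 90.9 and 142 CPM in the aged MFP and 21.2 and 31.4 in the young. It was higher in both aged samples by 2.15 ± 0.33 on the log2 scale (adjusted p = 0.36 in edgeR and 6.0e-06 in DESeq2). Amhr2, the receptor of anti-Müllerian hormone, had 1.37 and 2.22 against 0.671 and 0.894 CPM (1.20 ± 0.42, edgeR adjusted p = 0.47). Of the 6 tested co-receptor genes these 2 were higher and 0 lower at an unadjusted p under 0.05 (all genes: 7.24% and 3.31%). Among the other ligands, Mstn, or myostatin, the muscle-made inhibitor of muscle growth, had 7.58 and 18.9 CPM in the aged libraries, against 2.21 and 3.69 in the young. Its log2 fold change was 2.17 ± 0.58 (adjusted p = 0.42 in edgeR and 0.0090 in DESeq2), or 1.36 without aged replicate 2. Summed skeletal muscle markers, given above, were also higher in both aged libraries and highest in aged replicate 2, as Mstn and Hjv were. Of the 10 members with an unadjusted p under 0.05, Gdf3, Gdf6 and Nog were also highest in aged replicate 2. The others of the 10 were highest in aged replicate 1. Summed adipocyte markers were also highest there (11698 CPM, against 7802 in aged replicate 2), as were the endothelial and Schwann cell sums. The part of muscle or of any other cell type in all these values was not tested. Amh was lower in both aged samples, with 0.770 and 0.741 against 1.59 and 1.11 CPM (−0.83 ± 0.37, edgeR adjusted p = 0.51).

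Of the 12 tested extracellular modulators, Twsg1 and Nbl1 were higher at an unadjusted p under 0.05 and 0 were lower (all genes: 7.24% and 3.31%). Twsg1, a BMP-binding partner of chordin, had 74.6 and 74.3 CPM in the aged samples, compared with 47.7 and 59.0 in the young (0.48 ± 0.16). Nbl1, a BMP antagonist of the gremlin family, had 22.3 and 18.4 against 7.20 and 12.9 CPM (1.02 ± 0.35). Their edgeR adjusted p was 0.46 each. Both were separate by age, and both were lowest in young replicate 1.

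The SMAD2/3 target list, which includes the member Ltbp2, was mixed, with a median log2 fold change of −0.05. Of 10 tested, 1 was higher and 4 lower at an unadjusted p under 0.05 (all genes: 7.24% and 3.31%). The lower genes were matrix genes. Col1a1, a chain of type I collagen, had 503 and 350 CPM in the aged MFP and 1213 and 1368 in the young, and Fn1, fibronectin, had 110 and 97.6 against 297 and 592 CPM. Their log2 fold changes were −1.60 ± 0.27 and −2.10 ± 0.39 (DESeq2 adjusted p = 2.0e-05 and 1.1e-04; edgeR adjusted p = 0.36 and 0.37). Col3a1 (−1.12 ± 0.30) and Postn (−0.92 ± 0.33) were the other lower genes, and these and Ccn2 were chosen for mention after their values were seen. The higher one was Ccn2, or connective tissue growth factor, with 30.0 and 53.7 CPM against 8.72 and 18.3 CPM. Its log2 fold change was 1.63 ± 0.50, or 1.15 to 2.26 on leaving out each library. Of its exons, 23.2% are covered by Gm15270 on the other strand. The fibroblast marker list, which also holds Col1a1, did not separate as a whole: 4 of its 8 genes were higher and 3 lower in both aged samples. Its part in the collagen values was not tested.

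For the SMAD1/5 target genes the median log2 fold change was 0.03, against −0.04 over all genes. Of the 8, 1 had both aged samples above the young and 0 below, against 23.3% and 22.8% of all genes. The other 7 overlapped between ages. Atoh8, a transcription factor induced by BMPs, was higher in both aged samples at 10.5 and 6.97 CPM against 3.59 and 4.27 CPM (1.15 ± 0.31, adjusted p = 0.42 in edgeR and 0.043 in DESeq2). Id1 and Id3, the most used readouts of BMP signaling, had 32.5 and 21.02 against 24.6 and 28.0 CPM and 77.7 and 44.2 against 59.2 and 59.6 CPM. Both overlapped, with log2 fold changes of 0.02 ± 0.27 and 0.04 ± 0.31. Of the 8 tested genes, 1 was higher and 0 lower at an unadjusted p under 0.05 (all genes: 7.24% and 3.31%).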

How the data were processed

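RNA of whole mouse MFP was sequenced from rRNA-depleted, directional libraries. The values deposited are raw read counts for each gene and sample, with featureCounts, R 3.6.1 and the builds GRCm38 and hg38 named in the submitters' processing notes; the aligner, annotation and strand setting are not given in the sources used here. Groups came from the sample titles. Counts were fitted with edgeR 4.0.16 (R 4.3.3; limma 3.58.1; filterByExpr, TMM, quasi-likelihood, legacy method, age only, two-sided, prior count 2) over all 22485 genes that passed the filter, with Benjamini-Hochberg adjustment, and with DESeq2 1.42.0 as an alternative. The procedure was tested on simulated data. The smallest exact permutation p for 2 against 2 is 0.333, so none was run. All 54 members matched GENCODE M21, the source of coordinates and exon lengths; promoter windows are RefSeq's (GRCm38.p6).

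The members, lists and tests were chosen with earlier results of these data known. The naming rule took, in each group, the 5 members with the smallest p and the 3 with the highest level, every member called, and 2 genes per pathway list; the other tested members were then given too, after their values were seen, except 1 that is counted but not reported here. No source says that a replicate number pairs samples, so numbers were not taken as pairs. Same-numbered samples deviated from their age means with a correlation of -0.48. Crossed samples must then give 0.48, so this value cannot decide on pairing. Alternatives were other scalings, filters, tests, replicate blocks, and each library left out.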

Additional observations from a re-analysis of the deposited data

How the results depend on the processing

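With total counts only, 6 members were higher at an unadjusted p under 0.05, and both aged samples lay above the young for 13 members and below for 2. Of all genes, 2752 then passed in either direction, against 2371 with TMM. The shares of all genes with separate ages given above hold for TMM and do not apply to the 13 and 2. With no filter on low counts, 1 member was lower (Grem1), 2 lay below, and the antagonist median was 0.10. DESeq2 called 845 genes and 4 members, where edgeR called 0. With the replicate number as a block, 6 members were higher and 7 pathway genes passed, while 1346 of all genes passed in either direction. The block called no gene at an adjusted p. A crossed pairing of the numbers, chosen after seeing the data, gave 17 members higher and called 0 genes, while 2494 of all genes passed in either direction. The cause of these differences was not tested. On leaving out each library, with a lone sample assumed to vary like the others, members higher ranged from 4 to 24, lower from 0 to 2, above from 25 to 37, below from 3 to 11, and passing pathway genes from 7 to 15. The medians ranged from 0.22 to 0.99 (ligands), 0.30 to 0.66 (receptors), 0.21 to 0.80 (antagonists) and 0.07 to 0.83 (latency and processing). Over all genes they ranged from -0.07 to 0.02. The upper ends of the medians by role came without young replicate 2, which left young replicate 1 alone. Of 501 values of 36 named genes, 479 kept sign and call, 10 passed the threshold in DESeq2, and 12 in 9 genes changed sign, all on leaving out a library. Those 9 ranged over the libraries left out from -1.12 to 0.080 (Tgfb1), -0.17 to 1.07 (Tgfb3), -0.31 to 0.93 (Inhbb), -0.99 to 0.26 (Bmp1), -0.020 to 0.83 (Ltbp3), -0.36 to 0.088 (Tgfbr2), -0.085 to 0.61 (Chrd), -0.37 to 0.25 (Fstl1) and -0.045 to 0.76 (Smad6). Without aged replicate 1 the reversed values were -0.087 for Inhbb, 0.071 for Tgfbr2, -0.085 for Chrd and -0.045 for Smad6, and without aged replicate 2 0.060 for Fstl1.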
